A study of Mus musculus with 4 samples.

Results

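Transcript levels of 10 mouse genes for dual-specificity phosphatases that act on mitogen-activated protein (MAP) kinases were examined: Dusp1, Dusp2, Dusp3, Dusp4, Dusp5, Dusp6, Dusp7, Dusp8, Dusp10 and Dusp16. They were taken by symbol, with no threshold on measured values, and all 10 were found among the 37681 gene IDs of each count table. The study sequenced the mRNA of marrow cells from C57BL/6 mice of wild-type genotype, grown with serum in DMEM to which L929 supernatant was added, a source of the growth factor that turns marrow progenitors into macrophages. The cells were unstimulated or stimulated with Pam3Cys4, a synthetic lipopeptide sensed by the TLR2 and TLR1 receptor pair, at 100 nM and, per the titles, for 5 h. Each state was sequenced without shRNA and with a short hairpin RNA (shRNA) directed at lncRNA-COX2, which gives 4 groups. All 4 groups share the strain, the genotype and the culture medium, and none carries a gene deletion. Titles in the groups without shRNA hold the letters EV, which the labels do not explain, so whether those cells received a control construct is not known. The age and sex of the mice, and how many stand behind a library, do not appear in the sources used here, and the level of lncRNA-COX2 was not analysed here.

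MAP kinases are switched on when a threonine and a tyrosine in their activation loop are phosphorylated, and dual-specificity phosphatases remove both phosphates. Toll-like receptors activate ERK, JNK and p38, the main MAP kinase branches, and several of the phosphatase genes are themselves targets of these kinases, so that they act as negative feedback on the cascade. In macrophages the nuclear phosphatase made from Dusp1 is known as a brake on p38, JNK and cytokine production. The family is usually sorted into inducible nuclear enzymes (Dusp1, Dusp2, Dusp4, Dusp5), cytoplasmic enzymes that prefer ERK (Dusp6, Dusp7), enzymes that prefer JNK and p38 (Dusp8, Dusp10, Dusp16), and small atypical enzymes without the kinase-binding domain, such as that of Dusp3.

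There was 1 library per group, so no difference was checked against replicates, and every interval given for a level or a ratio covers counting error only. Gene reads per library ranged from 47385277 to 65826838, over 16916 to 17267 genes. All 12 macrophage markers examined were detected in each library, with summed levels from 7054 to 10344 CPM (scaled counts per 1000000 gene reads). In the additive test described below, 4 of the 12 rose and 1 fell (Adgre1) with the shRNA, where 12.3% and 8.66% of all genes did. The largest change was in Mertk, at 4.91 and 1.09 CPM without shRNA (unstimulated, then Pam3Cys4) and 38.8 and 8.02 CPM with it. Mertk reached 5 CPM only in the shRNA libraries, where it was high, so its entry into the test already required a difference. Markers of B cells, red cells, fibroblasts, mast cells and NK cells summed to less than 1 CPM in each library, and those of dendritic cells to 0.330 to 2.32 CPM. The 12 granulocyte markers summed to 0.480 to 12.1 CPM, with the neutrophil collagenase Mmp8 at 11.6 CPM in the stimulated cells without shRNA and Ly6g and S100a9 at 0 in all libraries. The 8 T cell markers summed to 2.40 and 2.97 CPM without shRNA and to 18.5 and 21.4 CPM with it, of which the receptor gene Il7r made up 14.4 and 12.8 CPM, while Cd3e, Cd3d, Cd3g and Cd8a were at 0 throughout. The part these marker levels have in the results was not tested. The libraries with and without shRNA stood apart beyond the genes described here. Taking genes with at least 5 CPM in both libraries of one kind and under 0.2 CPM in both of the other, 21 were read with shRNA only and 35 without shRNA only, against 5 read with Pam3Cys4 only and 0 in unstimulated cells only. Y-linked genes were part of this split: Ddx3y gave 3 and 4 reads in the libraries without shRNA and 921 and 1116 in those with it, and Kdm5d gave 0 and 1, then 730 and 665. Uty leaned the same way, at 1 and 0, then 320 and 334 reads, but was under 5 CPM in the unstimulated shRNA library and so outside the 21. The Y-linked gene Eif2s3y had its few reads without shRNA (3 and 6) and 0 in both shRNA libraries. In every shRNA comparison below, the shRNA and any difference between the animals or cultures behind the libraries cannot be told apart.

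The 10 genes covered a wide range of levels, and 4 of them held most of the family's transcripts. Levels of different genes were compared as RPKM, CPM divided by the kilobases of annotated exon. In unstimulated cells without shRNA, Dusp6 stood first at 72.7 RPKM, followed by Dusp4 at 59.6, Dusp7 at 55.5 and Dusp3 at 42.5 RPKM. Dusp5 came next at 10.7 RPKM, and the other 5 genes lay between 0.0867 RPKM (Dusp8) and 3.62 RPKM (Dusp16). Dusp4, Dusp6, Dusp7 and Dusp3 were also the first 4 in each of the other libraries, in another order: Dusp4 led both Pam3Cys4 libraries, at 84.2 and 100 RPKM without and with shRNA, and Dusp7 led the unstimulated shRNA library at 58.8 RPKM. Of the 9 pairs of neighbours in the order, 2 had overlapping intervals in unstimulated cells without shRNA (Dusp16 with Dusp2, and Dusp2 with Dusp1). The overlapping pair was Dusp7 with Dusp5 in stimulated cells without shRNA, Dusp3 with Dusp4 in unstimulated shRNA cells and Dusp6 with Dusp5 in stimulated shRNA cells. In RNA from a whole culture, fewer cells that express a gene and less RNA per cell cannot be told apart.

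**Figure D1:**
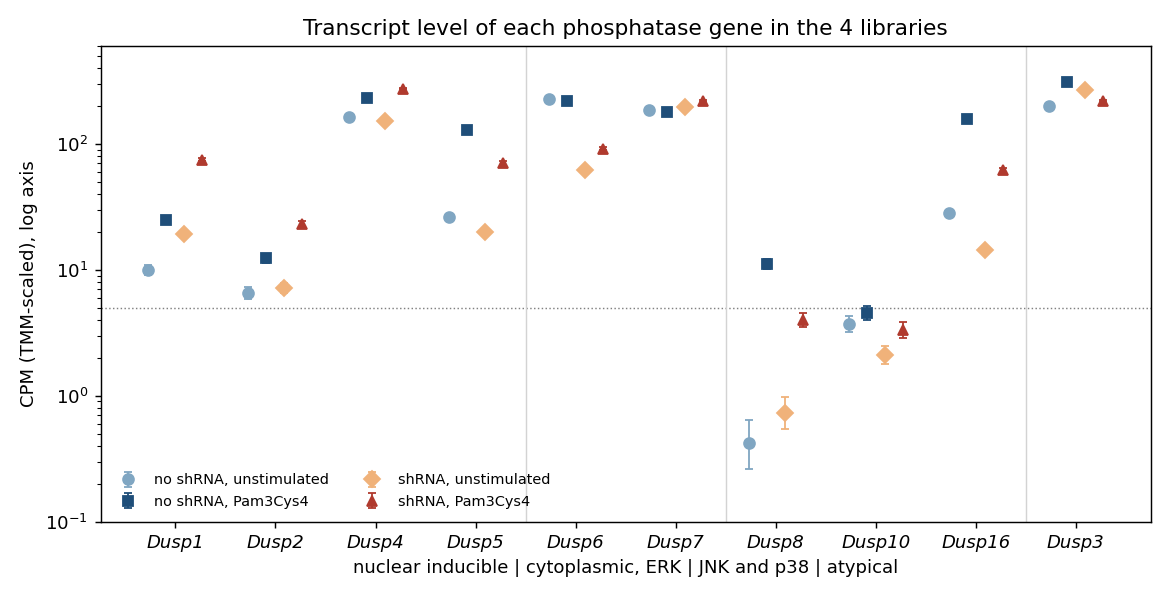
Level of each phosphatase gene in each of the 4 libraries, in CPM on a log axis, with 95% counting intervals and the 5 CPM filter as a dotted line. The circles, squares, diamonds and triangles are single libraries: Dusp6 sits at 228 and 220 CPM in the libraries without shRNA and at 62.5 and 91.4 CPM in the others, and Dusp10 stays under the line in all 4.

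Added over the 10 genes, the level was 252 RPKM in unstimulated cells and 364 RPKM after Pam3Cys4 without shRNA, and 211 and 314 RPKM with shRNA. The make-up of this sum also differed between libraries. The 4 nuclear genes made up 30.4% of it in unstimulated cells without shRNA and 41.4% after Pam3Cys4, and 34.4 and 51.9% with shRNA. The cytoplasmic pair made up 50.8 and 33.9% without shRNA and 37.3 and 30.0% with it, of which Dusp6 alone was 28.8, 19.3, 9.47 and 9.30%. The 3 genes whose enzymes prefer JNK and p38 were a small share everywhere, 1.96 and 6.62% without shRNA and 1.27 and 3.15% with it. Nuclear and cytoplasmic here refer to where the proteins are known to reside, and transcripts alone were measured.

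**Figure D2:**
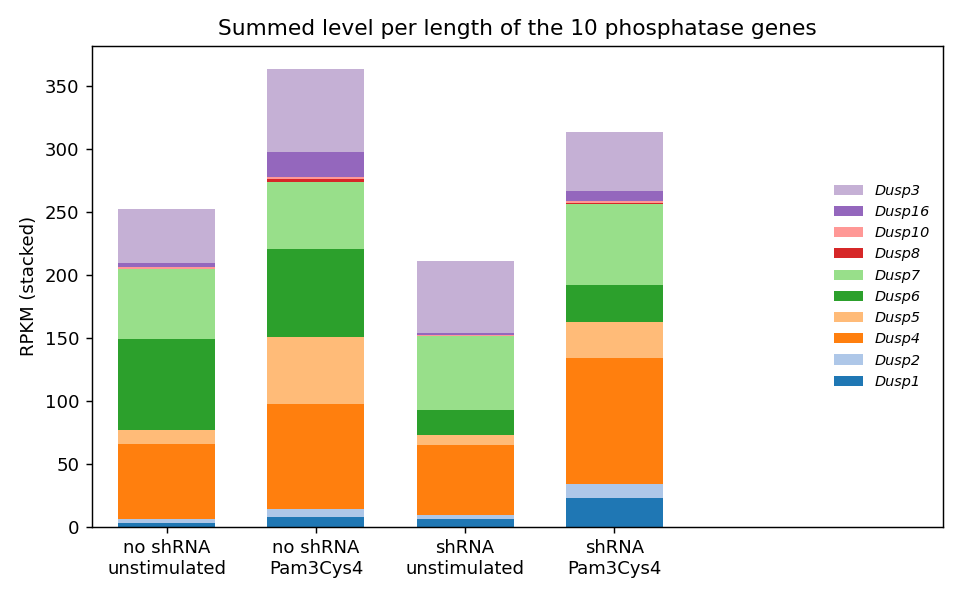
Stacked levels of the 10 genes in RPKM, 1 bar per library. The bars reach 252, 364, 211 and 314 RPKM from left to right, and the dark green Dusp6 segment is 72.7 and 70.4 RPKM without shRNA against 20.0 and 29.2 RPKM with it.

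The first question of the design was which genes respond to Pam3Cys4. Stimulated cells had more transcript of the inducible nuclear genes and of Dusp16 in both shRNA states, and far more Dusp8 without shRNA. Dusp7 differed little, with ratios of 0.954 and 1.10 without and with shRNA, and Dusp6 had ratios of 0.969 and 1.46. A gene was counted as apart between 2 libraries when the ratio of its scaled counts was at least 2-fold and the 95% interval left out 1, provided the gene reached 5 CPM in the higher of the pair. Without shRNA, 9 of the 10 genes passed this filter, and 4 were higher after Pam3Cys4 (Dusp1, Dusp5, Dusp8 and Dusp16), against a background of 7.07% of all genes measured. None was lower, against 6.51% of all genes, and the members' median log2 ratio was 0.91 beside 0.00 for all genes. With shRNA, 8 genes passed and 4 were higher (Dusp1, Dusp2, Dusp5 and Dusp16), against 6.30% of all genes. None was lower there either, against 3.53%, and the median was 1.27 beside 0.02. Having passed the filter only through the stimulated library, as Dusp8 did without shRNA, itself requires a difference, so the counts are a description.

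The additive test, edgeR's quasi-likelihood F test with Benjamini-Hochberg adjustment over 9559 genes, used the 4 libraries together and took both shRNA states as repeats of the stimulation. It had 1 residual degree of freedom, any interaction entered its error, and its p-values do not cover the spread between separately grown cultures. For stimulation, 5 of the 8 members tested rose (Dusp1, Dusp2, Dusp4, Dusp5 and Dusp16), where 11.9% of all genes rose. None of the 8 fell, where 10.9% of all genes fell, and all 8 log2 changes were above 0 in both edgeR and DESeq2. The 8 members tested reached 5 CPM in all 4 libraries, and Dusp8 and Dusp10 in too few to be tested.

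**Figure D3:**
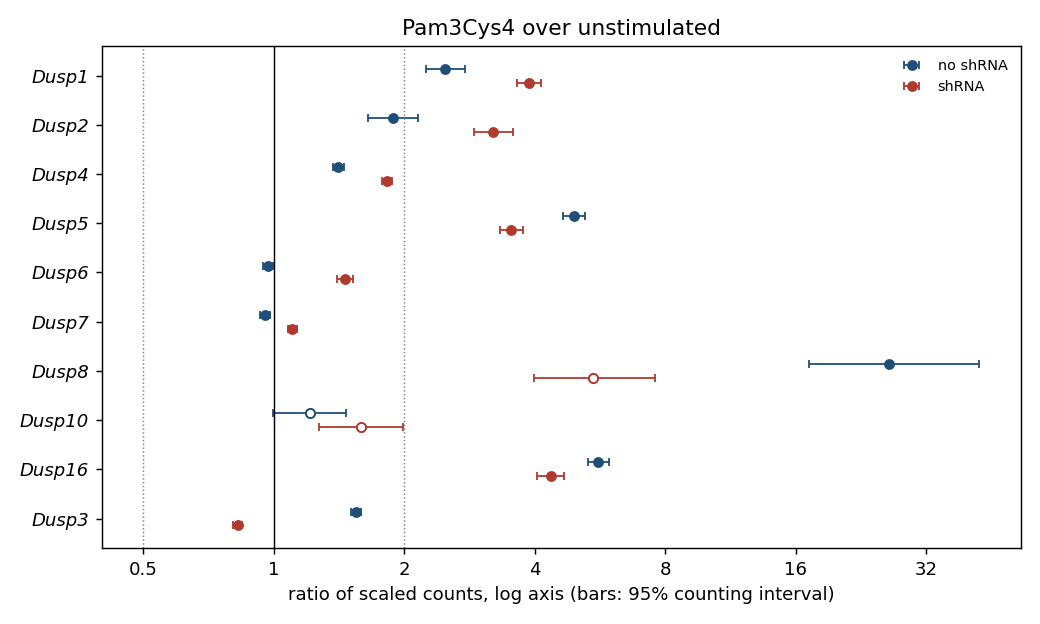
Ratio of scaled counts, Pam3Cys4 over unstimulated, on a log axis for cells without shRNA (blue) and with shRNA (red), with 95% counting intervals; dotted lines mark 2-fold and open circles stand for pairs with under 5 CPM in both libraries. Dusp8 lies farthest to the right, at 26.3 without shRNA and 5.45 with it, and Dusp3 lies on opposite sides of 1, at 1.55 and 0.826.

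Among the nuclear genes, Dusp5, whose enzyme is specific for ERK, had the largest response in cells without shRNA. It was read at 26.4 CPM in unstimulated and 130 CPM in stimulated cells lacking the shRNA, and at 19.9 and 70.3 CPM in those with it. Both stimulated libraries were above both unstimulated ones, by 4.93-fold (interval 4.65 to 5.23) without shRNA and 3.53-fold (3.32 to 3.76) with it. The additive change was 2.06 on the log2 scale (SE 0.17, edgeR adjusted p = 0.00542). Dusp5 (ENSMUSG00000034765, chr19:53529109-53542431 of GRCm38, plus strand) shares 547 bp of exon with an antisense gene, and the strand setting of the counting is unknown, so reads of the pair cannot be told apart.

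Dusp1, whose enzyme acts on p38, JNK and ERK, was read at 9.99 and 24.8 CPM without shRNA (unstimulated, then Pam3Cys4), and at 19.4 and 75.0 CPM in shRNA cells. The stimulated library was the higher within each shRNA state, but unstimulated shRNA cells came close to stimulated cells without shRNA. Its stimulation ratio was 2.48-fold (2.24 to 2.76) without shRNA and 3.87-fold (3.64 to 4.13) with it, and its additive change was 1.64 (SE 0.20, edgeR adjusted p = 0.0113). Dusp1 (ENSMUSG00000024190) lies on the minus strand of chromosome 17, at chr17:26505590-26562128 of GRCm38.

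Dusp2, an inducible phosphatase of activated immune cells, was a low transcript, with 6.54 CPM before and 12.3 CPM after stimulation without shRNA, and 7.14 and 22.9 CPM in shRNA cells. The unstimulated libraries were nearly level and the stimulated ones stood above both, by 1.88-fold (1.65 to 2.15) and 3.21-fold (2.89 to 3.57). The additive change was 1.30 (SE 0.24, edgeR adjusted p = 0.0252). Dusp4, a nuclear enzyme related to that of Dusp1, was abundant throughout, with 163 and 231 CPM in cells without shRNA and 151 and 275 CPM in shRNA cells. Its ratios of 1.41 and 1.82 stayed under 2-fold in both states, and its additive change of 0.68 passed the test (SE 0.14, edgeR adjusted p = 0.0320). Dusp2 (ENSMUSG00000027368) is at chr2:127336159-127338376 and Dusp4 (ENSMUSG00000031530) at chr8:34807297-34819894, both on the plus strand of GRCm38.

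Of the genes whose enzymes prefer JNK and p38, Dusp16 and Dusp8 had large ratios and Dusp10 did not. Dusp16 was read at 28.2 and 158 CPM without shRNA, and in shRNA cells at 14.3 and 62.1 CPM. That is 5.61-fold (5.31 to 5.94) and 4.35-fold (4.05 to 4.68) more after Pam3Cys4, and both stimulated libraries lay above both unstimulated ones. Its additive change of 2.31 (SE 0.15, edgeR adjusted p = 0.00401) was the largest of the 8 members tested. Dusp8 went from 22 reads (0.422 CPM) to 561 reads (11.1 CPM) without shRNA, and from 49 reads (0.735 CPM) to 220 reads (4.01 CPM) with it. Without shRNA this was 26.3-fold, with an interval of 17.2 to 42.3 that reflects the few reads of the unstimulated library. With shRNA it was 5.45-fold (3.98 to 7.59), in a pair of libraries that both lay under 5 CPM. Dusp10 had 3.74, 4.53, 2.10 and 3.33 CPM in the same order of libraries, and its interval without shRNA, 0.997 to 1.47 around a ratio of 1.21, holds 1. Dusp16 (ENSMUSG00000030203) is at chr6:134715468-134792625 and Dusp8 (ENSMUSG00000037887) at chr7:142079490-142095843, both on the minus strand, and Dusp10 (ENSMUSG00000039384) at chr1:184013302-184075636 on the plus strand of GRCm38.

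The 2 cytoplasmic genes, whose enzymes hold ERK outside the nucleus in check, and the atypical Dusp3 were abundant, and their stimulation ratios stayed under 2-fold. Dusp6 had 228 and 220 CPM without shRNA, a ratio of 0.969, and its 62.5 and 91.4 CPM in shRNA cells gave a ratio of 1.46. Dusp7 had 186 and 178 CPM in cells without shRNA, and 197 and 218 CPM in shRNA cells, the narrowest range of the 10 genes. For Dusp3 the levels were 199 and 309 CPM without shRNA, then 266 and 220 CPM in shRNA cells, so it was higher after Pam3Cys4 in one state (1.55-fold) and lower in the other (1.21-fold lower). In the additive test of stimulation, edgeR's adjusted p was 0.334 for Dusp6 (log2 change 0.25), 0.833 for Dusp7 (0.04, and -0.12 when scaled by library totals alone) and 0.602 for Dusp3 (0.18). Dusp3 shares 604 bp of exon with an antisense gene. Dusp6 (ENSMUSG00000019960, chr10:99263231-99267489) and Dusp7 (ENSMUSG00000053716, chr9:106368632-106375724) lie on the plus strand and Dusp3 (ENSMUSG00000003518, chr11:101971143-101987013) on the minus strand of GRCm38.

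Dusp6 differed at least 2-fold with shRNA but not with stimulation. Its upstream sequence is shown with those of the 4 genes that were at least 2-fold higher after Pam3Cys4 without shRNA. Each is 200 bases, from base 250 to base 51 before the RefSeq start, 5′ to 3′ on the gene's strand, from RefSeq on GRCm38.p6. The windows are chr17:26508523-26508722 for Dusp1, chr19:53528895-53529094 for Dusp5, chr7:142095335-142095534 for Dusp8, chr6:134792679-134792878 for Dusp16 and chr10:99262981-99263180 for Dusp6. The Dusp1 and Dusp8 windows lie inside the gene spans given above, as do those of Dusp3 and Dusp10, because the RefSeq starts lie inside those spans. Capitals mark matches to 7 motifs searched on both strands: the cyclic AMP response element TGACGTCA, the AP-1 site TGANTCA, the STAT site TTCNNNGAA, the TATA box TATAAA, the E-box CACGTG, the CArG box bound by serum response factor, and the kB site bound by NF-kB. The motifs were chosen after the sequences had been seen, and no 2 matches overlap.
Dusp1: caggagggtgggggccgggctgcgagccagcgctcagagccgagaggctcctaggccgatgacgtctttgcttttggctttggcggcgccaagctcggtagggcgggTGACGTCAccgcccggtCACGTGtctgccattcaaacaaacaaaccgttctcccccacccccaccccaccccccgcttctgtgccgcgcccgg
Dusp5: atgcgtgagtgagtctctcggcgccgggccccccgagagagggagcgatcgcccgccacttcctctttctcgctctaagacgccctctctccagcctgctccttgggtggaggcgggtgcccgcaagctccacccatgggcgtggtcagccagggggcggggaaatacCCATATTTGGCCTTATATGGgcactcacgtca
Dusp8: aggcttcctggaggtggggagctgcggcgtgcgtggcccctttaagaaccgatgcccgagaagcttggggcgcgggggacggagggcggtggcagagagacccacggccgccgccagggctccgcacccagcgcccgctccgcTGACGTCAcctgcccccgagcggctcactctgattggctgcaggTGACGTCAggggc
Dusp16: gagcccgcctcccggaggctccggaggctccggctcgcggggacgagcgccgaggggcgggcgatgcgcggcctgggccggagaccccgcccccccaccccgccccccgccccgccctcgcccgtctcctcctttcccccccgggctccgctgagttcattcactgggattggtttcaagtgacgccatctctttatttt
Dusp6: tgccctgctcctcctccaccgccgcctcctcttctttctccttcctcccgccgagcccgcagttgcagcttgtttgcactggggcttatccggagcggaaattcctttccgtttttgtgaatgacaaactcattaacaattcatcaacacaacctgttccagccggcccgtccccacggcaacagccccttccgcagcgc

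In the Dusp1 window a full cyclic AMP response element stood 143 to 136 bases before the start, followed by an E-box at 126 to 121. The Dusp8 window held 2 such response elements, at 107 to 100 and at 63 to 56 bases before the start. The element was present in 0.828% of the 32851 promoter windows of the same length. The Dusp5 window held 2 CArG boxes end to end, at 82 to 73 and 72 to 63 bases before the start, where 1.16% of all windows held at least 1. Of the other members, Dusp2 held an E-box at 109 to 104, found in 4.34% of all windows. The Dusp16 and Dusp6 windows, and those of Dusp3, Dusp7 and Dusp10, held none of the letters searched. The AP-1, STAT, TATA and kB patterns, found in 5.57, 5.76, 9.14 and 3.13% of all windows, matched in none of the 9 members with a sequence. These matches describe the letters of the windows, and neither a match nor its absence was tied here to any factor. The 9 windows were rich in G and C, with a median of 68.0% beside 51.5% for all windows.

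The second question was how cells with the shRNA differ from those without it. The clearest differences among the members were a lower level of Dusp6 and Dusp16 and a higher level of Dusp1 in both stimulation states. Each comparison here shares a library with each stimulation comparison above, so their values are given side by side and not compared. In unstimulated cells, 0 of the 8 members measured were at least 2-fold higher with shRNA, against 7.00% of all genes. There 1 was lower, Dusp6, against 4.82% of all genes, and the median log2 ratio was -0.01 beside 0.02 for all genes. After Pam3Cys4, 1 of 9 was higher, Dusp1, against 9.0% of all genes. In the same comparison 3 were lower, Dusp6, Dusp8 and Dusp16, against 5.58% of all genes, and the median was -0.49 beside 0.05. Dusp8 passed the filter there only through the library without shRNA, where it was high, so its place in the count follows in part from the filter. In the additive test of the shRNA, 1 of 8 members rose, where 12.3% of all genes did. In that test 2 of 8 fell, where 8.66% of all genes did.

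**Figure D4:**
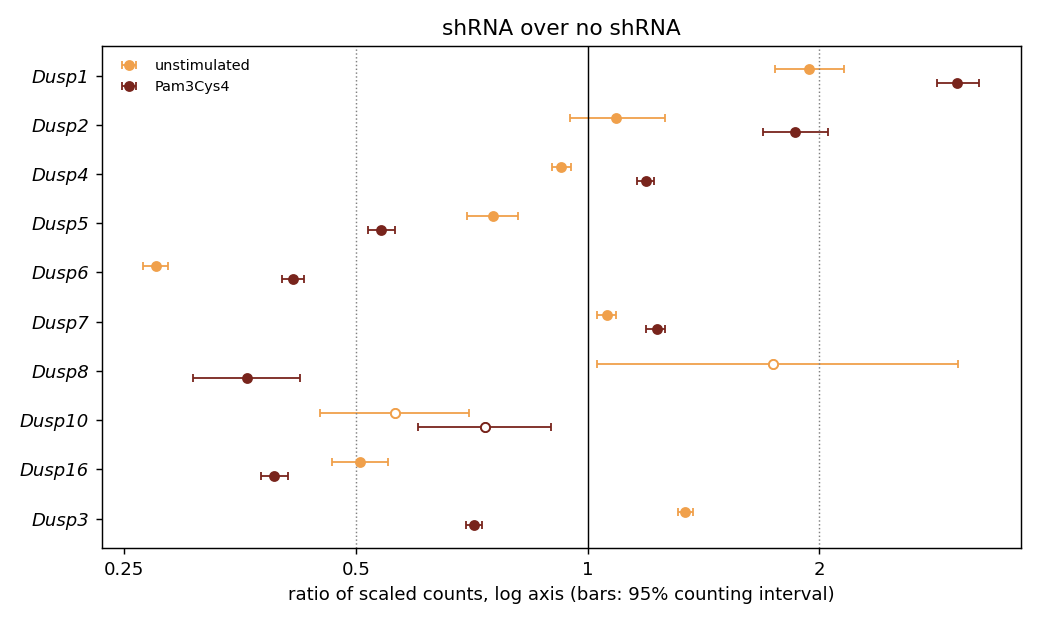
Ratio of scaled counts, shRNA over no shRNA, on a log axis for unstimulated cells (light) and after Pam3Cys4 (dark), with 95% counting intervals; dotted lines mark 2-fold and open circles stand for pairs with under 5 CPM in both libraries. Dusp6 lies at 0.275 and 0.415, Dusp16 at 0.506 and 0.392 and Dusp1 at 1.94 and 3.02, each on the same side of 1 in both states.

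Dusp6 fell with the shRNA. Its 4165 and 5019 reads with shRNA compared with 11862 and 11134 without it, and both shRNA libraries lay below both others on the CPM scale. The level was lower by 3.64-fold (3.51 to 3.77) without stimulation and by 2.41-fold (2.33 to 2.49) after Pam3Cys4. The additive change was -1.57 (SE 0.18, edgeR adjusted p = 0.00645). Its partner Dusp7, with the same preference for ERK, had ratios of 1.06 and 1.23 and did not pass the test (log2 change 0.19, edgeR adjusted p = 0.314). With library totals as the only scaling, the unstimulated Dusp7 log2 ratio went from 0.08 to -0.04.

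Dusp16 fell as well, with levels lower by 1.98-fold (1.82 to 2.15) in unstimulated cells and by 2.55-fold (2.45 to 2.65) in stimulated cells. Its additive change was -1.17 (SE 0.15, edgeR adjusted p = 0.00897). The libraries with shRNA held less Dusp16 than their counterparts both before and after stimulation. Dusp8 was 2.77-fold lower (2.37 to 3.25) with shRNA after Pam3Cys4. In unstimulated cells it rested on 22 and 49 reads, a ratio of 1.74 (1.03 to 3.03). Dusp10, under the filter in each library, had ratios of 0.562 (0.449 to 0.701) and 0.735 (0.602 to 0.897).

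Dusp1 rose with the shRNA, to 1.94-fold (1.75 to 2.15) in unstimulated cells and 3.02-fold (2.84 to 3.22) after Pam3Cys4. Its additive change was 1.28 (SE 0.20, edgeR adjusted p = 0.0150). The other nuclear genes did not pass this test. Dusp5 had ratios of 0.753 and 0.540 and an additive change of -0.65 that missed the threshold (SE 0.16, edgeR adjusted p = 0.0536), and each of the 5 other settings placed it under 0.05, at 0.00722 to 0.0459. Dusp2 had ratios of 1.09 and 1.86 (edgeR adjusted p = 0.179), and Dusp4 of 0.925 and 1.19 (edgeR adjusted p = 0.736). For Dusp3 the ratios were 1.34 and 0.712 (edgeR adjusted p = 0.927).

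Whether the response to Pam3Cys4 had another size with the shRNA was described by the ratio of the stimulation ratios, which uses all 4 libraries once and has no test. It was at least 2-fold smaller for 1 of 9 members measured, Dusp8, against 1.64% of all genes. None was at least 2-fold larger, against 1.94%. Dusp8 reached 5 CPM only in the stimulated library without shRNA, where it was high. Its place in this count thus follows in part from the filter. For Dusp8 the stimulation ratio was 4.83-fold smaller with shRNA (2.85 to 8.18), a log2 difference of -2.27. Dusp3 came next at -0.91, while Dusp2 (0.77), Dusp1 (0.64) and Dusp6 (0.59) had larger ratios with shRNA. Dusp5 (-0.48) and Dusp16 (-0.37) had somewhat smaller ones, and Dusp4 (0.37) and Dusp7 (0.21) somewhat larger ones. Of the 4 nuclear genes, Dusp1, Dusp2 and Dusp4 were highest in stimulated shRNA cells and Dusp5 in stimulated cells without shRNA. Of the genes whose enzymes prefer JNK and p38, Dusp8 and Dusp16 were highest in stimulated cells without shRNA. Dusp10 was read highest there too, at 4.53 CPM, which is under the filter. Its ratio over unstimulated cells without shRNA had an interval, 0.997 to 1.47, that held 1.

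By distance between centred log2(CPM + 1) profiles over the 4 libraries, among 9899 genes with at least 5 CPM in some library, the genes nearest to Dusp1 were Nlrc5, Usb1 and Gm12250, with Nlrc5 at a distance of 0.114. Nlrc5, a regulator of MHC class I genes, was read at 16.7, 36.3, 30.5 and 114 CPM, in the order unstimulated and Pam3Cys4 without shRNA, then with it. The nearest to Dusp5 were Scimp (0.108), Rhoc and Samsn1, and Samsn1 was also among the nearest to Dusp16, after Dgkh (0.338) and Dnmt3l. Rhoc, a small GTPase, had 31.2, 172, 24.4 and 98.5 CPM, close to the proportions of Dusp5. The nearest to Dusp6 were Prkca (0.237), Cass4 and Dnhd1, and Prkca, a protein kinase C, had 9.30, 9.98, 1.71 and 2.66 CPM. With 4 libraries, a short distance is a description of the profile and of nothing else.

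Among the rest of the dual-specificity family, Dusp9 stood apart between the shRNA states. Of 16 further family genes 6 were tested, and for stimulation 0 rose and 1 fell, the JNK pathway phosphatase Dusp22 (log2 change -0.66, SE 0.14, edgeR adjusted p = 0.0327). With the shRNA, 2 rose and 1 fell. Over all genes tested, 11.9% rose and 10.9% fell with stimulation, and 12.3% rose and 8.66% fell with the shRNA. Dusp9, the close relative of Dusp6 and Dusp7 that also prefers ERK, had 5 and 0 reads without shRNA and 1033 and 443 reads with it. In unstimulated cells that was 162-fold more (69.0 to 499), and after Pam3Cys4 at least 110-fold more by the interval, with a ratio of 136 when the 0 is taken as 3 reads. Its additive change was 7.90 (SE 0.48, edgeR adjusted p = 0.00106). Dusp9 entered the test only through the 2 shRNA libraries in which it was high, so its passing the filter already required the difference. Dusp18 rose (1.17, SE 0.17, edgeR adjusted p = 0.0134) and Dusp11, an RNA phosphatase, fell (-0.57, SE 0.12, edgeR adjusted p = 0.0359). Dusp18 too reached 5 CPM only in the shRNA libraries, where it was high. Other phosphatases of MAP kinases are read against the same shares. Of 7 such genes tested, 2 rose with stimulation, the catalytic subunit Ppp2ca and the blood cell tyrosine phosphatase Ptpn7. With shRNA 0 rose and 1 fell, Ptpn7, which was 1.77-fold and 1.66-fold lower.

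The genes of the kinases themselves are read against all genes tested, of which 11.9% rose and 10.9% fell with stimulation and 12.3% rose and 8.66% fell with the shRNA. Several of the counts for kinases and scaffolds lay near these shares. Of 9 MAP kinase genes tested, 2 rose with stimulation (Mapk7 for ERK5 and Mapk11 for p38 beta) and 0 fell, and 0 passed for the shRNA in either direction. Of 7 MAP2K genes 0 rose and 2 fell with stimulation, among them Map2k6, an activator of p38, which went from 11.6 to 2.69 CPM without shRNA and from 7.79 to 1.26 CPM with it. Map3k8, the kinase that links Toll-like receptors to ERK, was the largest change among 17 MAP3K genes, of which 2 rose and 1 fell: it went from 3.76 to 15.0 CPM without shRNA and from 4.23 to 19.3 CPM with it. Of 10 kinases downstream of MAP kinases, 3 rose and 2 fell, with Mapkapk2, the p38 target kinase, 2.45-fold and 2.82-fold higher. Map2k6, and Rps6ka5 among the downstream kinases that fell, reached 5 CPM only in the unstimulated libraries. Map3k8 reached it only in the stimulated ones. For each of these genes, entry into the test already required a difference. For the shRNA, 0 of the MAP2K genes passed, 0 rose and 1 fell among the MAP3K genes (Map3k20), and 1 rose and 0 fell among the downstream kinases (Rps6ka3). Of 9 scaffold and adaptor genes, 1 rose and 1 fell for each effect.

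Several other inhibitors of the ERK pathway fell with the shRNA. Of 11 such genes tested, 6 fell and 1 rose with the shRNA, where 8.66% and 12.3% of all genes did, with a median log2 change of -0.87 beside 0.04 for all genes. Spry2, a Sprouty protein induced by ERK signalling, was read at 12.7 and 34.6 CPM without shRNA, and in shRNA cells at 4.91 and 8.69 CPM, 2.59-fold and 3.99-fold lower. Its relative Spry4 had 1003 and 1640 reads without shRNA and 8 and 0 with it, which makes it one of the genes read in a single shRNA state. Its level was lower by 160-fold without stimulation and by at least 483-fold after Pam3Cys4 by the interval, or 594-fold when the 0 is taken as 3 reads. Like Dusp9, it reached 5 CPM only in the shRNA state where it was high, as did Egr2 and Etv4 below. Rasa2, a GTPase-activating protein for Ras, was 4.67-fold and 4.22-fold lower, and Rasa1, Spred1 and Errfi1 also fell, while Rasa3 rose. For stimulation 3 of the 11 rose (Spry2, Spred3 and Errfi1) and 1 fell (Rasa3), where 11.9% and 10.9% of all genes did. Spred3 and Errfi1 reached 5 CPM only in the Pam3Cys4 libraries, where they were high, so their entry into the test already required a difference.

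Transcripts known to respond to MAP kinase signalling showed both effects. Of 20 tested, 11 rose and 1 fell with stimulation, where 11.9% and 10.9% of all genes did, with a median of 1.01 beside 0.00 for all genes. Phlda1 was 25.8-fold higher without shRNA and 11.4-fold with it, and Ier3, an early response gene of ERK and NF-kB, 10.1-fold and 7.42-fold. Fosl2, an AP-1 subunit, was 6.39-fold and 3.34-fold higher. Fosl1, also among the 11, reached 5 CPM only in the stimulated libraries, where it was high. With the shRNA, 2 of the 20 rose and 7 fell, where 12.3% and 8.66% of all genes did, with a median of -0.38 beside 0.04. Egr2, an early growth response factor, was 8.97-fold and 7.08-fold lower with shRNA, and Phlda1 4.84-fold and 11.0-fold lower. Etv4, a factor induced by ERK signalling, was 9.61-fold and 6.68-fold lower. The genes that rose were Fos, at 15.5 and 16.6 CPM without shRNA and, in shRNA cells, 34.3 and 91.4 CPM, and Zfp36, which encodes an mRNA-destabilizing protein. ERK activity itself was not measured, and the part that differences between the animals or cultures have in these shRNA results was not tested.

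**Figure D5:**
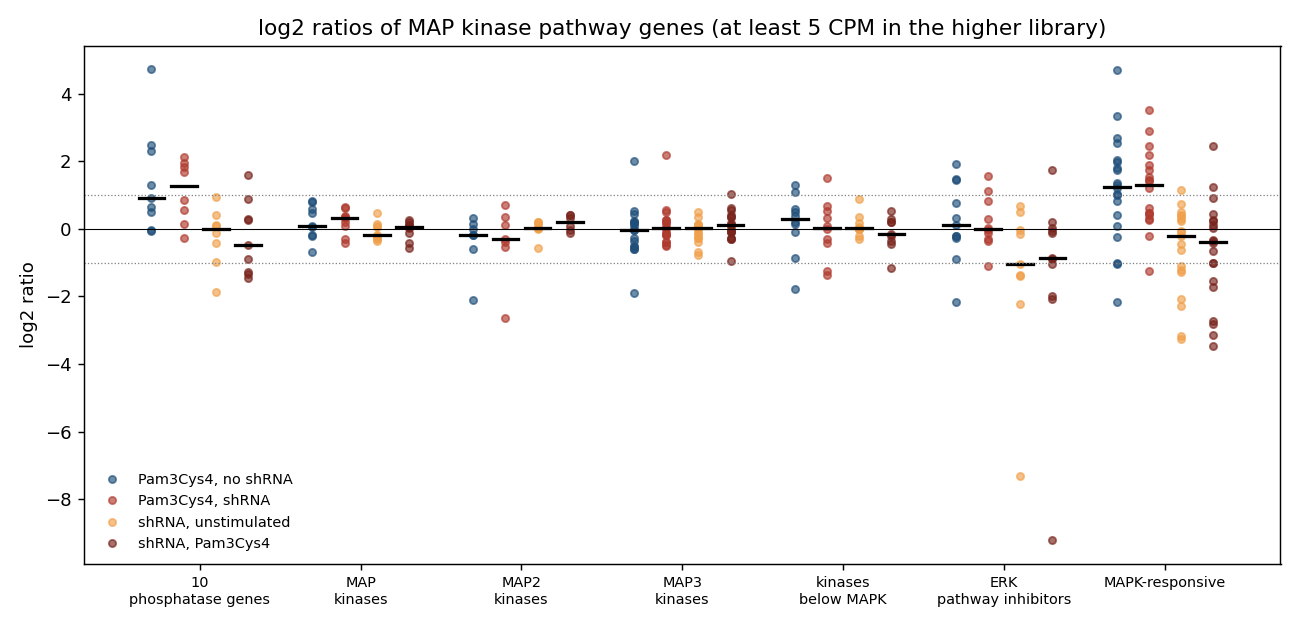
log2 ratios of single genes in the phosphatase set and in 6 other pathway lists, for the 4 pairs of libraries, with the median of each list as a bar and 2-fold as dotted lines. Medians are 0.91, 1.27, -0.01 and -0.49 over the 9, 8, 8 and 9 phosphatase genes measured and 0.13, 0.00, -1.03 and -0.86 for the inhibitors of the ERK pathway; the lowest points are Spry4, with 0 reads taken as 3 after Pam3Cys4.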

How the data were processed

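Messenger RNA was sequenced in 4 libraries of bone marrow cells, 1 per group; libraries were read at 50 bp, per the labels' protocols. Per the submitters' processing notes, CASAVA 1.8, TopHat and HTSeq were used with build NCBIM37; for the other versions, the annotation release and the strand option, the value is not given in the sources used here. As deposited, the files hold whole-number read counts per gene ID, made by the authors with HTSeq. Lines that name no gene (32.5 to 34.4% of each table, of which alignments to several places were 27.0 to 29.9% of the table) stayed out of all totals, so genes with close copies may be undercounted. Names, exon lengths and promoters came from a reference on GRCm38, another build than that of the counts; its coordinates were not applied to the counts. Symbols were matched for 32642 of 37681 IDs.

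Counts were scaled with TMM factors (edgeR 4.0.16, R 4.3.3). Ratios between 2 libraries carry exact conditional binomial 95% intervals, and a count of 0 was replaced by 3 reads. The ratio of stimulation ratios needed at least 10 reads in each library. The only test was an additive model of stimulation and shRNA, on genes that reached 5 CPM in at least 2 libraries. It used the quasi-likelihood F test in edgeR (Benjamini-Hochberg adjusted p under 0.05), with DESeq2 1.42.0 as an alternative. The edgeR test of stimulation and the ratio intervals were tried on simulated data, and the DESeq2 alternative was not. Levels per length used the union of a gene's exons. Promoter sequences were found for 9 of the 10 members.

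The members and the lists, which hold 207 symbols of which 206 were matched, were chosen with earlier results of these data known, and so were the tests and settings. Named genes were all members, up to 4 genes per list and comparison with the largest ratios, and the 3 nearest profiles of 4 members. Spred1 and Fos, which lie outside those ranks, and the Y-linked genes were named after their values were seen. Alternatives were scaling by library totals or DESeq2 size factors, a 1 CPM filter or none, a 1.5-fold limit and transcript length for the exon union.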

Additional observations from a re-analysis of the deposited data

Results flagged for a closer look

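Several of the phosphatase genes had stimulation ratios on opposite sides of 1 in the 2 shRNA states. Dusp3 was 1.55 times as high after Pam3Cys4 without shRNA and 0.826 times as high with it, Dusp6 0.969 and 1.46 times, and Dusp7 0.954 and 1.10 times. The ratio of shRNA over no shRNA likewise lay on opposite sides of 1 in unstimulated and stimulated cells for Dusp3 (1.34 and 0.712), Dusp4 (0.925 and 1.19) and Dusp8 (1.74 and 0.361). In unstimulated cells the Dusp8 ratio rests on 22 and 49 reads, both under 5 CPM. Of all genes measured, 4771 of 9555 had a stimulation ratio above 1 without shRNA and 4941 of 9601 with it. For the shRNA ratio it was 5073 of 9651 in unstimulated and 5263 of 9702 in stimulated cells. How many of all genes lie on opposite sides of 1 was not counted. The differences between states in these members were not tested, since each rests on 1 library per group.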

How the results depend on the processing

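With 1 library per group, no replicate could be left out. No paired analysis was possible because each group has 1 library and the labels carry no replicate numbers. Of the member counts, those that moved by more than 1.5 times were all in the shRNA comparisons: in unstimulated cells, a 1.5-fold limit gave 1 member higher (Dusp1) and 2 lower (Dusp6 and Dusp16), and library totals alone also gave 2 lower. After Pam3Cys4 a 1.5-fold limit gave 2 members higher (Dusp1 and Dusp2). The cause was not tested, other than that a lower limit admits smaller ratios. The number of members that fell with the shRNA was 3 in place of 2 in each of the 5 other fits, which add Dusp5 (log2 change -0.65 to -0.75). None of the member ratios past 2-fold changed direction under either other scaling; with library totals the all-gene median log2 was -0.19 and -0.12 for stimulation without and with shRNA, and -0.10 and -0.03 for the shRNA in unstimulated and stimulated cells, in place of 0.00, 0.02, 0.02 and 0.05, and ratios under that scaling are read relative to it. Over all genes, the 8 counts past the limit were 339 to 873 genes at 2-fold, 985 to 1654 at a 1.5-fold limit and 892 to 1610 with no filter. At 1 CPM, genes lower with stimulation in shRNA cells went from 339 to 526, and genes lower with shRNA from 465 to 791 and from 541 to 893. Using the longest transcript for length moved 24 of 40 RPKM values beyond their counting interval and changed the rank of 2 members in 3 of the 4 libraries. Depth limits Dusp8 most, with 22 and 49 reads in unstimulated cells.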
